A study of Homo sapiens with 6 samples.

Results

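The genes described here make the proteins that copy DNA at the replication fork, apart from the MCM helicase. They were chosen by a fixed list of 48 gene symbols, and all 48 were found among the 19775 genes that the array table names. A gene is read on the array by one or more probe sets, and each gene was read by 1 of the probe sets that name it alone, the one brightest on average. RNA came from OCI-AML3, an established human acute myeloid leukaemia cell line that carries an NPM1 mutation. There were 3 samples given the solvent DMSO for 24 h and 3 samples given 1 μM Vorinostat (SAHA), an inhibitor of histone deacetylases, for 24 h. Both groups are numbered 1, 2 and 3. Nothing in the labels or methods says that the numbers stand for separate cultures, and the p-values thus reflect sample-to-sample spread that may be technical.

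Replication begins when the origin recognition complex, CDC6 and CDT1 load the helicase onto origins, a step called licensing. The kinase of CDC7 and DBF4, with CDC45 and the GINS complex, then turns the loaded helicase into a moving fork. Polymerase alpha with primase starts each strand, polymerases delta and epsilon extend it while held by the sliding clamp PCNA, which the RFC complex loads, and nucleases and a ligase join the pieces. Histone chaperones then rebuild chromatin behind the fork. Many of these genes are transcribed as cells enter S phase under E2F transcription factors. In RNA of a whole culture, fewer cells in S phase and less RNA per cell cannot be told apart.

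The arrays differed in signal more by replicate number than by treatment. Values are log2 values as deposited. Of the 48 genes, 36 lay above a log2 value of 3 on DMSO replicate 1 and 29 on Vorinostat replicate 1, but between 6 and 13 did on the other 4 arrays. Medians over all probe sets lay between 1.55 and 1.66 on the 6 arrays, so a value near 2 is close to the bulk of dim probe sets, and a difference between such values is poorly measured. There were 17 replication genes above 3 on both number 1 arrays and on no other array, 11 at or under 3 on every array and 6 above 3 on every array. For all 48 genes the range among the 3 DMSO arrays was larger than the difference between the group means. Of the 9 myeloid markers measured, CTSG lay between 6.11 and 9.76 on the 6 arrays, ELANE between 2.77 and 8.84 and CEBPA between 3.36 and 8.13. AZU1 and PRTN3 lay above 3 on the number 1 arrays only. MPO, SPI1, CSF3R and ANPEP lay under 3 on every array, as did all 7 T and NK cell markers.

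Replication genes were mostly lower with Vorinostat, but no gene passed the adjusted test. The mean difference, Vorinostat minus DMSO, was negative for 41 of 48 genes (85.4%), against 53.1% of all genes, with a median of -0.33 against -0.02. Brighter genes were mostly negative too: of the 3379 genes with a mean above 3 over the 6 arrays, 68.8% were negative with a median of -0.23, and all 11 measured genes of a housekeeping list were negative with a median of -0.51. Without both number 1 arrays the median of the 48 genes was -0.24 with 36 negative. Without DMSO replicate 1 alone, which leaves the bright Vorinostat replicate 1 with no DMSO array of its number, it was 0.35 with 9 negative. Shares over all genes with these arrays left out are not given here. In each of the 3 replicate numbers 17 genes (35.4%) were lower with Vorinostat, against 13.7% of all genes. The histone chaperone ASF1A was higher in each number, 1 gene of 48, against 13% of all genes. By limma, with p-values adjusted over every probe set tested (Benjamini-Hochberg), 0 of 48 genes passed an adjusted p under 0.05, against 0% of all genes. At an unadjusted p under 0.05 limma gave 2 lower genes (4.17%), POLD3 and LIG1, against 0.389% of all genes, and 0 higher genes, against 0.602%. These were also the 2 genes whose Vorinostat arrays all lay below all DMSO arrays, against 1.95% of all genes. When the replicate number was a block, limma gave 9 lower genes (18.8%) at an unadjusted p under 0.05, against 3.12% of all genes, 0 higher genes, against 2.25%, and 0 at an adjusted p under 0.05. The share of lower genes with the block was larger among brighter genes. It was 9.35% of the 3379 genes with a mean above 3, against 22.2% of the 18 replication genes with a mean above 3.

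The differences were not of one size across the replicate numbers. In number 1, 42 of 48 genes (87.5%) were negative, against 51% of all genes, and the median was -0.73. In number 2, 40 genes were negative (83.3%), against 55.8% of all genes, and the median was -0.32. In number 3, 23 genes were negative (47.9%), against 45.3% of all genes, and the median was 0.00. The pairing of arrays within numbers 2 and 3 is uncertain. Over probe sets, deviations from the group means correlated at 0.695 for DMSO replicate 3 with Vorinostat replicate 2. For the arrays of number 2 they correlated at 0.599. Differences given for numbers 2 and 3, and counts of genes lower in each number, depend on that pairing. A value lower by more than 1 on the log2 scale, which is more than 2-fold, was seen for 17 genes in number 1, 8 in number 2 and 0 in number 3. Over all genes the shares past this size were 5.56%, 7.58% and 1.37%.

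**Figure D1:**
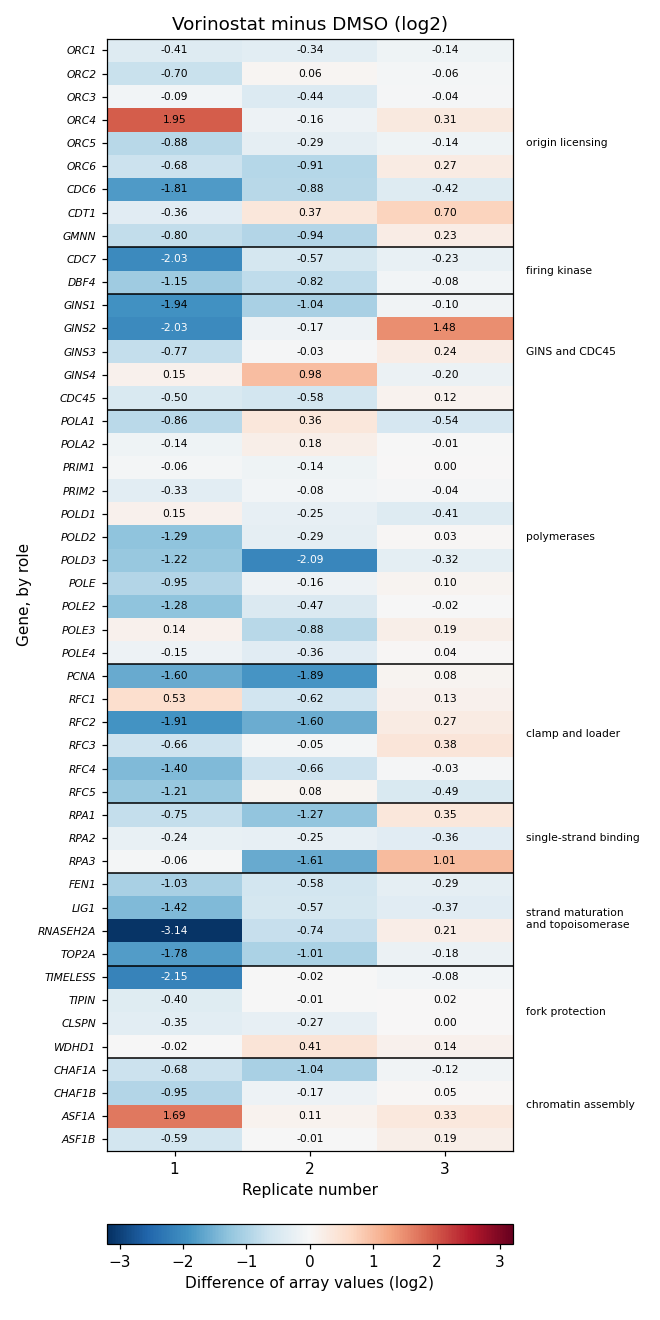
Vorinostat minus DMSO in log2 units for the 48 replication genes (rows, ordered by role) within replicate numbers 1, 2 and 3 (columns), with blue for lower and red for higher. Number 1 holds the most negative values, down to -3.14 for RNASEH2A, and 42, 40 and 23 genes are negative in numbers 1, 2 and 3.

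Brighter genes as a whole also moved with the replicate number. Over the 3379 brighter genes the median difference was -0.15 in number 1, -0.73 in number 2 and 0.20 in number 3. The 18 replication genes with a mean above 3 had medians of -0.68, -0.85 and 0.14. All 18 lay above 3 on both number 1 arrays, but between 33.3% and 61.1% of them did on the other 4 arrays. Of the 3379 brighter genes, between 44.7% and 70.2% did on those 4 arrays. Many of the 18 were thus dim outside number 1. The 11 housekeeping genes had medians of 0.02, -1.70 and -0.24. In number 1 the median of the replication genes was negative while the housekeeping median lay near 0, and in number 2 the housekeeping median was the lower of the pair. Of the 3379 brighter genes, 13.4% were lower by more than 1 in number 1 and 38.7% in number 2, where the shares of the 18 bright replication genes were 33.3% and 33.3%. For all 48 replication genes, most of them dim, the shares were 35.4% and 16.7%. Of these brighter genes 19.5% were lower in each number, against 33.3% of the 18 bright replication genes. The part of the overall signal of each array in the differences was not tested.

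**Figure D2:**
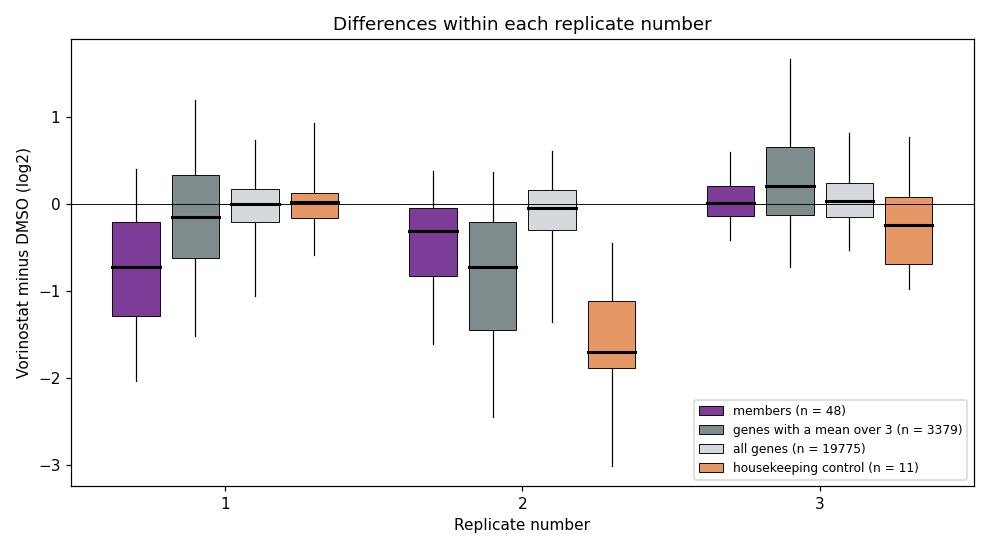
Vorinostat minus DMSO in log2 units within each replicate number for the 48 replication genes, genes with a mean over 3, all genes and the housekeeping list, with boxes from the 25th to the 75th percentile, thick lines at the median and whiskers from the 5th to the 95th percentile over genes. The replication genes have their lowest median, -0.73, in number 1, and the housekeeping genes theirs, -1.70, in number 2.

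The promoters of these genes were searched for an E2F site. In RefSeq (GRCh38.p14), windows from 250 bases before to 50 bases after the transcript start were found for 44 of the 48 genes. GINS4, POLD3, RPA2 and RPA3 had none. The windows were searched on both strands for 4 words of the E2F site, namely TTTCCCGC, TTTCGCGC, TTTGCCGC and TTTGGCGC. A word was found in 15 of 44 windows (34.1%), against 3.27% of 27305 windows of the same length and 4.23% of the 15384 windows of genes measured here. In the lists of other replication genes described last, the word was found in 4 of 6 windows of MCM genes (66.7%), 3 of 11 of nucleotide precursor genes (27.3%) and 6 of 23 of other replication functions (26.1%). It was found for 5 of the 15 genes with a window that were lower in each replicate number (33.3%) and for 10 of the other 29 (34.5%). By role, 5 of 10 polymerase genes, 3 of 4 genes of GINS and CDC45, 3 of 9 licensing genes and 0 of 4 chromatin assembly genes had a word. A match is a description of these letters and not a binding site.

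The windows of the licensing factor CDC6, the GINS subunit GINS1, the ligase LIG1 and the fork protein TIPIN are shown, because these are the genes with values given per array below whose window holds a word. Capitals mark the word. They lie at chr17:40287629-40287928 on the plus strand (CDC6), chr20:25407423-25407722 on the plus strand (GINS1), chr19:48170295-48170594 on the minus strand (LIG1) and chr15:66356636-66356935 on the minus strand (TIPIN). Each is written along the strand of the gene.
CDC6: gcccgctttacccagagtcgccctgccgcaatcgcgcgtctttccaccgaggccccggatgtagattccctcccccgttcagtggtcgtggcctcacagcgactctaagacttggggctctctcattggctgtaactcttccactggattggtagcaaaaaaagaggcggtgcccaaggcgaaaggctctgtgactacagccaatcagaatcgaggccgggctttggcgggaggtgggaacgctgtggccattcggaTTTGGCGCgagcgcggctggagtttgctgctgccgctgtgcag
GINS1: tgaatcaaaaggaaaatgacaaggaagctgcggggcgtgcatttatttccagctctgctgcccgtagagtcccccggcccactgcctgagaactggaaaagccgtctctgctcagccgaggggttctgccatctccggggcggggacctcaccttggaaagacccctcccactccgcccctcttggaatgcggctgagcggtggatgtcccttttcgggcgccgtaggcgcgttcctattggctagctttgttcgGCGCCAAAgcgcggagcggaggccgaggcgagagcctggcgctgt
LIG1: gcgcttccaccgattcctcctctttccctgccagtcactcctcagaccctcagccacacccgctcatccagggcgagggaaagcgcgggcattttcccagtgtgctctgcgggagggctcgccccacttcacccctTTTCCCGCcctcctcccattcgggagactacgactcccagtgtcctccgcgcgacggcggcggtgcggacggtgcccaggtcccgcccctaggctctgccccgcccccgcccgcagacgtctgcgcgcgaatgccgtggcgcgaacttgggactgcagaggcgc
TIPIN: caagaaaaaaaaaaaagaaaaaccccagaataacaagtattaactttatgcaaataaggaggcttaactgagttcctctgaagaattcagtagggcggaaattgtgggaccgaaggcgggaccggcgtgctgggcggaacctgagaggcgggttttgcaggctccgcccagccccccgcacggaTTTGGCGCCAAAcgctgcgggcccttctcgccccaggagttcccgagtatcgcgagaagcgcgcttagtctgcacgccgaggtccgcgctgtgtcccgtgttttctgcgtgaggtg
Counted from the transcript start, which is 0, the word begins at base 7 for CDC6, 5 for GINS1 and -114 for LIG1. In TIPIN the words begin at -66 on one strand and -62 on the other and overlap. The GINS1 word lies on the strand opposite to the gene.

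The licensing genes were lower in number 1 with 1 exception. Of the 9 genes, 8, 7 and 5 were negative in numbers 1, 2 and 3, with medians of -0.68, -0.34 and -0.04. CDC6, the ATPase that loads the helicase with the origin recognition complex, read 3.86, 2.12 and 1.81 on DMSO replicates 1, 2 and 3 and 2.05, 1.24 and 1.39 on the Vorinostat replicates. Each Vorinostat array lay below the DMSO array of the same number, but the groups overlapped. Its log2 difference was -1.03 (standard error 0.59), with an adjusted p of 1 and an unadjusted p of 0.137 from limma, and with the block the unadjusted p was 0.0241. Its other probe set differed by -2.10, -0.41 and -0.11 in numbers 1, 2 and 3.

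ORC1, the largest subunit of the origin recognition complex, read 2.14, 2.00 and 1.70 with DMSO and 1.72, 1.66 and 1.56 with Vorinostat. Its values all lay near the dim level, and its log2 difference was -0.30 (standard error 0.14, adjusted p = 1 from limma), with an unadjusted p of 0.085 and, with the block, 0.049. ORC3 and ORC5 were lower in each number too, by between 0.04 and 0.88. ORC4 was the exception, with differences of 1.95, -0.16 and 0.31. GMNN, which makes geminin, the inhibitor of CDT1, differed by -0.80, -0.94 and 0.23. CDT1 was read here by a probe set of the type that can share probes with other transcripts. It gave -0.36, 0.37 and 0.70 with values between 5.23 and 6.502, whereas the other CDT1 probe set gave -0.86, -0.06 and 0.07.

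Both subunits of the origin firing kinase were lower in each number. DBF4, its regulatory subunit, read 6.20, 2.13 and 1.80 with DMSO and 5.06, 1.31 and 1.72 with Vorinostat. The number 1 arrays were high in both groups and the other 4 were dim. Its log2 difference was -0.68 (standard error 1.59). The adjusted p from limma was 1, and the unadjusted p was 0.685 without the block and 0.0444 with it. CDC7, the catalytic subunit, differed by -2.03, -0.57 and -0.23.

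In the GINS complex and CDC45, which complete the active helicase, 4 of 5 genes were negative. GINS1 read 5.72, 2.66 and 2.49 with DMSO and 3.78, 1.62 and 2.39 with Vorinostat, so its differences were -1.94, -1.04 and -0.10. Its mean difference was -1.03 (standard error 1.06, adjusted p = 1 from limma). The unadjusted p from limma was 0.372 without the block and 0.0517 with it. GINS2 differed by -2.03 and -0.17 in numbers 1 and 2 but by 1.48 in number 3. Its mean difference was -0.24 (standard error 1.19, unadjusted p = 0.848 from limma without the block). The study listed GINS2 as decreasing in these same samples, by more than 2-fold at an unadjusted p under 0.05 after its own normalisation. In the deposited values a fall of that size was seen in number 1 but not in the mean difference. That listing is not independent evidence. CDC45 differed by -0.50, -0.58 and 0.12, and GINS4 by 0.15, 0.98 and -0.20 with values of 2.559 or less.

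Of the polymerase genes, POLD3 was the 1 whose groups did not overlap. POLD3, an accessory subunit of DNA polymerase delta, read 3.02, 4.33 and 2.85 with DMSO and 1.80, 2.24 and 2.53 with Vorinostat. All 3 Vorinostat arrays lay below all 3 DMSO arrays, and the highest value was on DMSO replicate 2 and not on a number 1 array. The group means were 3.40 ± 0.81 (SD, n = 3) and 2.19 ± 0.37 (SD, n = 3), with a log2 difference of -1.21 (standard error 0.45, adjusted p = 1 from limma). The unadjusted p was 0.0393, and 0.0284 with the block. Its other probe set was dim, between 1.41 and 2.32, and differed by -0.18, -0.44 and 0.42. With the mean of both probe sets the difference was -0.64 and the unadjusted p from limma 0.129. After quantile normalisation the difference was -1.17 and the unadjusted p also 0.129.

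POLD3 differed by -1.22, -2.09 and -0.32 in numbers 1, 2 and 3. Its mean difference was the most negative of the 11 polymerase genes, but POLD2 (-1.29) and POLE2 (-1.28) were lower in number 1, and POLA1 (-0.54) and POLD1 (-0.41) in number 3. Over the 11 genes the median differences were -0.33, -0.25 and -0.01 in numbers 1, 2 and 3, and 10 had a negative mean difference. POLE2, a subunit of polymerase epsilon, was lower in each number (-1.28, -0.47 and -0.02), as was PRIM2 of primase (-0.33, -0.08 and -0.04). POLD1, the catalytic subunit of polymerase delta, was above 3 on every array, between 3.23 and 4.14, and differed by 0.15, -0.25 and -0.41. PRIM1, the catalytic subunit of primase, read 5.87 and 5.81 on the number 1 arrays, a difference of -0.06. The histone-fold subunit POLE3 differed by 0.14 in number 1, so it was not lower in number 1.

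The clamp and its loader had negative medians in numbers 1 and 2 and a positive one in number 3. PCNA, the sliding clamp, read 7.68, 3.86 and 2.36 with DMSO and 6.08, 1.97 and 2.44 with Vorinostat, differences of -1.60, -1.89 and 0.08. RFC2, a small subunit of the clamp loader, differed by -1.91, -1.60 and 0.27, but its other probe set by -0.28, -0.11 and 0.20. RFC4 read 6.25, 2.94 and 2.29 with DMSO and 4.85, 2.28 and 2.26 with Vorinostat, and was the 1 gene of the 6 that was lower in each number. Its log2 difference was -0.70 (standard error 1.29, adjusted p = 1 from limma). RFC3, above 3 on every array, differed by -0.66, -0.05 and 0.38. RFC1, the large subunit, differed by 0.53, -0.62 and 0.13. The medians over the 6 genes were -1.30, -0.64 and 0.10.

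Of the single-strand binding protein RPA, RPA1 and RPA3 had their most negative differences in number 2. RPA2 read 5.38, 3.05 and 2.53 with DMSO and 5.14, 2.80 and 2.17 with Vorinostat. Its 3 differences were close to each other, -0.24, -0.25 and -0.36, with an unadjusted p of 0.0419 from limma with the block and 0.805 without it. RPA1, the largest subunit, was above 3 on every array and differed by -0.75, -1.27 and 0.35. RPA3, the smallest, differed by -0.06, -1.61 and 1.01.

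Genes of strand maturation and the topoisomerase TOP2A gave the lowest median of the mean differences, -0.89, among the roles with more than 2 genes. In number 2 the median of the RPA genes was lower, -1.27 against -0.66. All 4 genes were lower by more than 1 in number 1, and 3 were lower in each number. LIG1, the ligase that seals Okazaki fragments, read 2.996, 2.08 and 2.09 with DMSO and 1.57, 1.51 and 1.73 with Vorinostat. The groups did not overlap. Its means were 2.39 ± 0.52 (SD, n = 3) and 1.602 ± 0.11 (SD, n = 3), with a log2 difference of -0.79 (standard error 0.28). Its adjusted p from limma was 1, and its unadjusted p was 0.0332, or 0.0299 with the block. Both means lay under 3, so the size of this difference is poorly measured.

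FEN1, the nuclease that trims Okazaki fragments, read 5.36, 1.84 and 1.896 with DMSO and 4.33, 1.25 and 1.61 with Vorinostat. Its differences were -1.03, -0.58 and -0.29 (unadjusted p = 0.0218 from limma with the block, 0.646 without it), and its other probe set gave -1.84, -0.50 and 0.40. TOP2A, which untangles replicated DNA, read 8.39, 2.95 and 2.34 with DMSO and 6.61, 1.93 and 2.16 with Vorinostat. The differences of the probe set used were -1.78, -1.01 and -0.18 (unadjusted p = 0.0391 from limma with the block, 0.657 without it). Its mean difference was -0.99 (standard error 2.11). A second TOP2A probe set, 6.85 on both number 1 arrays, gave 0.00 in number 1, so the probe sets of TOP2A disagree where the signal was highest. RNASEH2A, the catalytic subunit of the nuclease that removes RNA from DNA, read 5.95 on DMSO replicate 1 and 2.81 on Vorinostat replicate 1. That difference of -3.14 was the lowest of all 48 genes in any number, and numbers 2 and 3 gave -0.74 and 0.21.

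**Figure D3:**
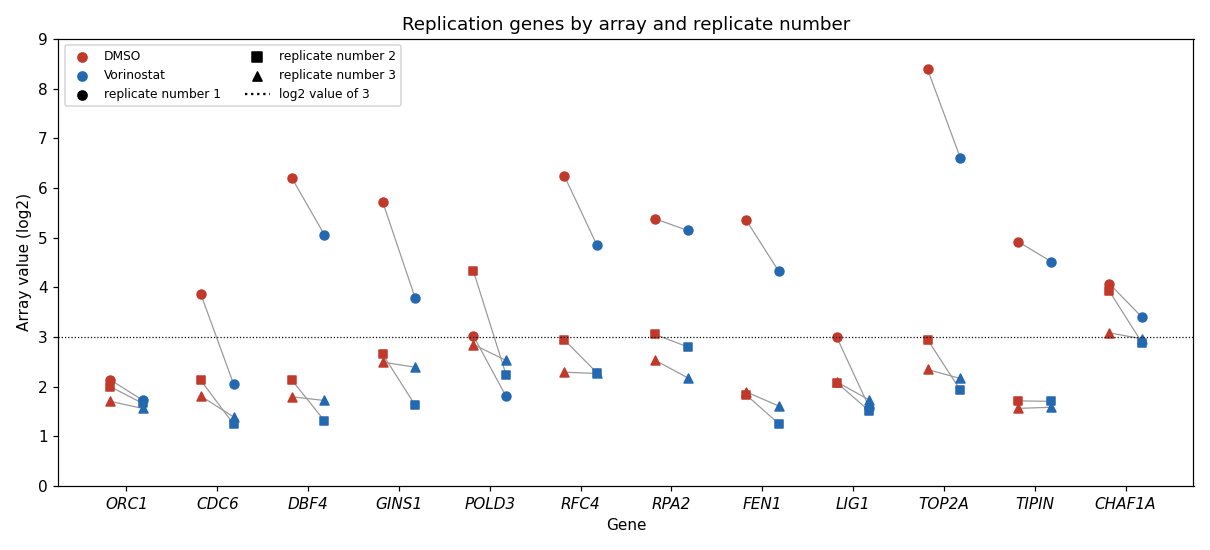
Log2 array values of 12 replication genes, with red for DMSO, blue for Vorinostat, a marker for each replicate number and grey lines joining arrays of the same number, without error bars. The Vorinostat arrays of POLD3 and LIG1 lie below all their DMSO arrays, and for TOP2A, DBF4 and RFC4 the number 1 arrays lie far above the other 4.

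The fork protection genes showed small differences except for 1. TIMELESS, which couples the helicase to the polymerases, read 4.33 on DMSO replicate 1 and 2.18 on Vorinostat replicate 1, and differed by -2.15, -0.02 and -0.08. TIPIN, its partner, read 4.91, 1.71 and 1.56 with DMSO and 4.52, 1.70 and 1.58 with Vorinostat. The log2 difference of TIPIN was -0.13 (standard error 1.25, adjusted p = 1 from limma). CLSPN, the adaptor that passes the checkpoint signal on, and WDHD1, which ties polymerase alpha to the helicase, lay at or under 2.02 on every array.

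The chromatin assembly genes held both directions. CHAF1A, the large subunit of the chaperone CAF-1, read 4.07, 3.92 and 3.08 with DMSO and 3.40, 2.89 and 2.96 with Vorinostat, with values near or above 3 on all arrays. Its log2 difference was -0.61 (standard error 0.31), the adjusted p from limma was 1, and the unadjusted p with the block was 0.0399. Numbers 1, 2 and 3 gave -0.68, -1.04 and -0.12. Of its 3 other probe sets, 2 had positive mean differences, 0.15 and 0.10. ASF1A, which hands histones to CAF-1, read 2.98, 1.496 and 1.53 with DMSO and 4.68, 1.61 and 1.86 with Vorinostat, and its second probe set gave 1.82, -0.83 and 0.01. Its paralogue ASF1B differed by -0.59, -0.01 and 0.19 with values above 3 on every array.

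**Figure D4:**
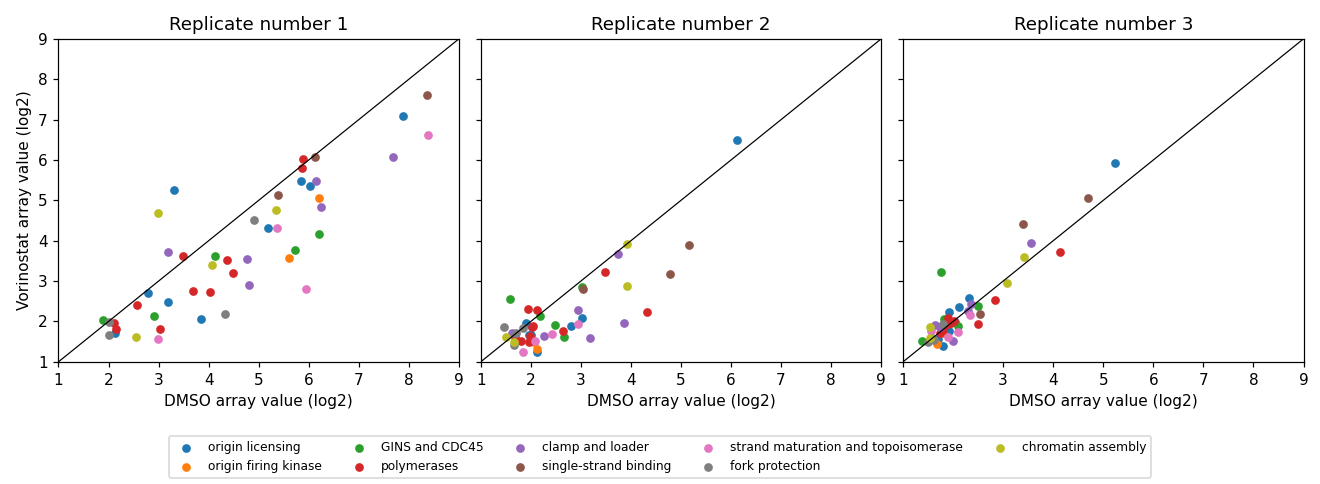
Vorinostat against DMSO array values in log2 units for the 48 replication genes, 1 panel per replicate number, with colour for the role and the line of equal values. In number 1 most points lie below the line and spread up to 8.39, and in numbers 2 and 3 most lie near 2.

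Where a gene had several probe sets, they often differed in sign. The 48 genes had 87 probe sets naming 1 gene, and 25 genes had a single one. Of the 39 probe sets that were not used, 25 had a mean difference of the same sign as the one used.

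Other genes of DNA replication, from lists that hold no member, were also mostly negative, as were all 11 housekeeping genes. Of these, the study listed MCM5, MCM10, SSRP1, CTPS1 and the housekeeping gene PGK1 as decreasing in these same samples. Their direction is thus not independent evidence. Over all genes 53.1% were negative, 13.7% were lower in each number and 13% higher in each number. The MCM list held MCM2 to MCM7 with MCM10 and MCMBP. All 8 of its genes had a negative mean difference (median -1.09), with medians of -1.17, -1.70 and -0.03 in numbers 1, 2 and 3. Of them, 4 (50%) were lower in each number. MCM4 was the 1 gene of these lists with an unadjusted p under 0.05 from limma without the block, with a log2 difference of -1.30 (standard error 0.44, adjusted p = 1 from limma). All 11 measured genes of nucleotide precursor synthesis were negative (median -0.68), with medians of -1.07, -1.44 and 0.16 in numbers 1, 2 and 3 and with 3 genes (27.3%) lower in each number. The MCM and precursor lists thus had their lowest median in number 2, as the housekeeping list did. The 48 replication genes had theirs in number 1, but the 18 of them with a mean above 3 had theirs in number 2. Of 30 measured genes of other replication functions, 25 were negative (83.3%, median -0.31), 8 were lower in each number (26.7%) and 2 were higher in each number (6.67%). Their medians were -0.46, -0.33 and 0.07 in numbers 1, 2 and 3, so also lowest in number 1. In the MCM, precursor and other replication lists the median of number 3 lay between -0.03 and 0.16, and in the housekeeping list it was -0.24.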

How the data were processed

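The authors deposited 1 table of log2 values per probe set and array (Affymetrix HG-U133 Plus 2.0). The methods name Partek Genomics Suite for the analysis. MAS5 and RMA both stand in the submitters' processing notes, which do not say which of them gave these values. The log2 scale was read from the values (0.868 to 13.8), and centring is unknown. Upper percentiles differed between arrays, so the values are not quantile normalised. Without the 62 controls, 54613 probe sets were fitted as deposited (limma 3.58.1 under R 4.3.3), with lmFit, then eBayes, no block, and Benjamini-Hochberg adjustment. The fit was also run on simulated data with independent noise and no signal difference between replicate numbers. That run thus does not show how the fit behaves on these arrays. Gene names came from the platform annotation: 41091 probe sets name 1 gene and 1801 several. The number of arrays limits the precision.

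The genes and lists were chosen with earlier results of these data known. Values per array are given for members with an unadjusted p under 0.05 with or without the block, for those of 1 sign in all numbers with a mean over 3, and otherwise for the brightest member of a role. The level of 3 is a description. The other members given with values, and the probe sets beside them, were chosen after their values were seen. Deviations from the group means correlated over probe sets at 0.874, 0.599 and 0.672 for numbers 1, 2 and 3, each above 0.1, and the numbers were therefore treated as pairs. DMSO replicate 3 and Vorinostat replicate 2 gave 0.695, so the data do not separate numbers 2 and 3.

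The lists held 8 genes of the MCM list, 31 other replication genes and 12 nucleotide precursor genes. Housekeeping genes and markers of myeloid, T and NK, B, erythroid, and fibroblast and epithelial cells were listed too. Of the B cell markers 1 of 4 measured lay above 3 on any array, of the erythroid markers 1 of 4 on at least 1 array, and of the fibroblast and epithelial markers at most 1 of 7 on any array.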

Additional observations from a re-analysis of the deposited data

How the results depend on the processing

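No replication gene passed an adjusted p under 0.05 in any alternative, including a two-tailed t-test. The methods name that test in general and not for the arrays. For the arrays the study used normalised values, a 2-fold change and an unadjusted p under 0.05, which was not rerun here. The count at an unadjusted p under 0.05 was 2 and changed with the setting. It was 9 with the replicate number as a block, 1 after quantile normalisation and 1 with the mean of all probe sets. By the t-test it was 0, as it was with a filter that kept probe sets above 3 on at least 3 arrays. When arrays were left out it lay between 0 and 5 (5 without DMSO replicate 3, 0 without any 1 Vorinostat array, 0 without both number 2 arrays and 1 without both number 3 arrays). Over all genes, limma gave 0.389% lower without the block and 3.12% with it. Shares over all genes under the other settings are not given here. The counts under those settings, also those of negative genes, thus cannot be set against a background. The filter left 11 members, of which 10 were negative and 2, RPA2 and CHAF1A, were lower in each number. Without the filter 17 of the 48 genes (35.4%) were lower in each number. POLD3 and LIG1 did not pass the filter. Over the arrays left out, the median difference of the 48 genes ran from -0.94 (without Vorinostat replicate 1) to 0.35 (without DMSO replicate 1), and the count of negative genes from 9 to 44. Without DMSO replicate 3 the median was -0.91. Leaving out 1 number 1 array keeps the other in 1 group only. Without both number 1 arrays the median was -0.24, without both number 2 arrays -0.28 and without both number 3 arrays -0.56. Of 170 values for the 12 genes that the rule for values per array names, 157 kept their sign. Those that turned were without an array: DBF4 ranged from -1.86 to 0.73, GINS1 from -1.62 to 0.022, RFC4 from -1.56 to 0.51, RPA2 from -1.17 to 0.58, FEN1 from -1.60 to 0.53, TOP2A from -2.51 to 0.92 and TIPIN from -1.09 to 0.96. Without arrays, POLD3 lay between -1.66 and -0.75 and LIG1 between -0.999 and -0.47, and with the mean of all probe sets POLD3 was -0.64. Over the alternatives that gave a difference, the unadjusted p from limma ran from 0.0284 (block) to 0.129 (quantile normalisation, and mean of all probe sets) for POLD3 and from 0.000727 (quantile normalisation) to 0.091 (without both number 2 arrays) for LIG1, and neither was under 0.05 without any 1 Vorinostat array. Of the 48 genes, 23 had both group means at or under 3, and in all 48 the range among the DMSO arrays exceeded the difference between the groups.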

Other observations

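PRIM2, the regulatory subunit of primase, has 4 further probe sets that also name PRIM2BP, which is why they were not used. All 4 lay under 2 on every array. The one with the largest difference gave -0.20, -0.32 and -0.28 in replicate numbers 1, 2 and 3.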
